A study of Mus musculus with 1037 samples.

Results

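Transcripts of 10 transcription factors that are known regulators of hair follicle stem cells (HFSCs) were followed through the outer root sheath (ORS) of mouse skin at 3 stages of the hair cycle. The members were Sox9, Lhx2, Tcf7l1, Tcf7l2, Nfatc1, Foxc1, Tbx1, Nfib, Runx1 and Gata6. They were taken by name, as the count rows whose Ensembl identifier carries each symbol, and all 10 were found among 55335 gene rows. Single cells had been profiled by Smart-seq2, which makes a full-length cDNA library from each sorted cell in its own well. All mice were wild type. At AnaVI, the end of the growth phase, the sorts were LOS, labelled lower ORS, and MOS and UOS, which both carry the label upper-middle ORS. At CatVI, late in regression, upper ORS cells were sorted onto plates named P17f, with the words Phago or NonPhago and alive or apop in their names. Plates pl1 and pl2 are named Phago alive, pl3 and pl4 NonPhago alive, pl5 Phago apop and pl6 NonPhago apop. At CatVII, the end of regression, upper ORS cells were sorted as OSalive and OSapop. The sorted cells at each stage came from a pool of animals, which makes every sort 1 sample without replicates. Stage and sort cannot be told apart, and no test between sorts was made. Wells and running numbers in the titles show 2 sets of CatVII wells, each with OSalive and OSapop cells. All but 15 CatVII cells could be placed in a set. What the sets are is not given in the labels. UOS titles also repeat wells, but these cells could not be divided.

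The bulge is the niche in the upper ORS where HFSCs rest between growth phases. Sox9 and Lhx2 help to keep bulge cells in their stem cell state, and Nfib takes part in the chromatin programme that holds their identity. Nfatc1 and Foxc1 restrain division and keep the cells quiescent, and Tbx1 supports the return to rest after use. Tcf7l1 and Tcf7l2 bind DNA for Wnt signalling, with Tcf7l1 acting mainly as a repressor. Runx1 favours the step from rest into growth. Gata6 belongs to the upper follicle, near the junction with the sebaceous duct.

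Upstream sequence is shown for Lhx2, Foxc1, Tbx1 and Runx1, the members past 2-fold in LOS or CatVI against UOS that have an entry in the RefSeq promoter table. Sox9, Nfatc1, Nfib and Gata6 have no entry there. Lhx2, Tbx1 and Runx1 have 2 entries each, and 1 was chosen by the number of annotated transcripts that start there. Matches in the other entry of these genes are not given, and which start these cells use was not tested. Each line gives the 250 bases before the transcription start of the chosen entry on GRCm38.p6, 5′ to 3′ in the direction of the gene. Capitals mark matches on either strand to short core letters of the families the members belong to. The letters searched were CTTTG for TCF/LEF, ACAAT for SOX, TAATTA for LIM homeodomain, GGAAA for NFAT, TAAACA for FOX, GGTGTG for T-box, TTGGC for NFI, TGTGGT for RUNX and AGATA for GATA factors.
Lhx2, chr2:38351058-38351307, plus strand: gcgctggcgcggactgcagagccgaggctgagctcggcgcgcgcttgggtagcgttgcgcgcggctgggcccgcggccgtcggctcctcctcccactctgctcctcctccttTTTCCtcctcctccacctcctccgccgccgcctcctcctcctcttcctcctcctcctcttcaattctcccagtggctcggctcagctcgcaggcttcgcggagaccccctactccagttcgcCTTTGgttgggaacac
Foxc1, chr13:31806396-31806645, plus strand: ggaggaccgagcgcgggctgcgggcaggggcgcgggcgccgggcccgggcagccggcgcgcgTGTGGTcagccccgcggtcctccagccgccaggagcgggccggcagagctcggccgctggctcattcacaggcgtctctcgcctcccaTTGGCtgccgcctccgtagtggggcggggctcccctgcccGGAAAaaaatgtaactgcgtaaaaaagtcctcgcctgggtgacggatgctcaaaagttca
Tbx1, chr16:18590672-18590921, minus strand: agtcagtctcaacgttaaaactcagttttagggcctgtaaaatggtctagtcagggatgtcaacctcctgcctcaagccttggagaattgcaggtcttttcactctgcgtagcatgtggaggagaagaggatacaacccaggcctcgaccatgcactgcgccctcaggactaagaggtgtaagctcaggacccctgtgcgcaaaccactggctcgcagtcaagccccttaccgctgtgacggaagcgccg
Runx1, chr16:92826075-92826324, minus strand: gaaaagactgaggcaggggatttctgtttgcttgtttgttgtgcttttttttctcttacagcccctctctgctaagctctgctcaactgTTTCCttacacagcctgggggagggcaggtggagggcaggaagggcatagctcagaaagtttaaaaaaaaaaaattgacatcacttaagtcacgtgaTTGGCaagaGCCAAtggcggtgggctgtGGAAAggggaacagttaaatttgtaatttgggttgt
The Lhx2 window held 1 TCF/LEF and 1 NFAT match. The Foxc1 window held 1 match each for RUNX, NFI and NFAT. The Runx1 window held 2 NFI and 2 NFAT matches. None of the letters occurred in the Tbx1 window, and no matches overlapped. Of all 32851 windows of this length in the table, 48.6% held the TCF/LEF letters, 55.6% the NFAT letters, 41.5% the NFI letters and 14.05% the RUNX letters. The share was 27.7% for SOX, 26.6% for GATA, 16.3% for T-box, 12.03% for FOX and 4.84% for LIM homeodomain letters. A match describes the sequence and was not read as a binding site.

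Of 1035 cells with counts and a clear group, 463 had 2000 or more detected genes and were kept. They were 39 of 93 cells in LOS, 38 of 72 in MOS, 83.6% of the cells in UOS, 80.1% in OSalive and 65.2%, or 92 cells, in OSapop. At CatVI, 4 of the 6 plates held passing cells, with 19 of 88 on pl1, 9 of 73 on pl2, 15 of 85 on pl5 and 14 of 69 on pl6. The NonPhago alive plates pl3 and pl4 held 0 passing cells of 67 and 57. The sorts held from 1840012 gene counts on pl6 to 287377663 in OSalive. The row with the most counts, which has no symbol in the annotation, took 56.3 to 66.6% of the counts of each sort.

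The labels were set beside marker genes. The keratinocyte list (Krt5, Krt14, Itga6, Itgb4) was detected in full in every sort, with sums from 798 counts scaled to 1000000 per sort (CPM) on pl2 to 5613 CPM on pl5. All genes of the bulge list (Cd34, Krt15, Lgr5, Postn, Fgf18) were detected in UOS, OSalive and OSapop, with sums of 1737.4, 1447.5 and 1719.7 CPM. Single genes of the list went opposite ways between these sorts. Krt15 was at 997.3 CPM in UOS, 231.2 in OSalive and 308.1 in OSapop. Lgr5 was at 39.5, 255.3 and 286.2 CPM and Postn at 620.1, 848.0 and 1021.1 CPM. The other sorts lacked Fgf18 and summed to 328 CPM in LOS, 795 CPM in MOS and 390 to 710 CPM on the CatVI plates. Cd34 was at 80.6 CPM in UOS, 111.1 CPM in OSalive and 1.46 to 9.71 CPM on the CatVI plates. In LOS and MOS it was at 24.9 and 21.5 CPM. CD34 and integrin α6 were part of the sort gates, so their transcripts are no separate check of the label.

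Genes of other cell types were also present. UOS held 611 CPM of the matrix and inner root sheath list (Krt71, Krt25, Msx2, Hoxc13), mostly Krt71, against 15.8 to 142.7 CPM elsewhere. LOS held 679 CPM of the fibroblast list (Col1a1, Col1a2, Pdgfra, Lum), 148.4 CPM of the melanocyte list (Pmel, Dct, Tyrp1, Mlana), 51.9 CPM of the endothelial list (Pecam1, Cdh5), 23.98 CPM of the immune list (Ptprc, Cd52, Lyz2, Cd74, Cd3e) and 204.5 CPM of the proliferation list (Mki67, Top2a, Ccnb1). These were the highest sums of each list over the 9 sorts. On pl2 the upper follicle and sebaceous list (Krt79, Scd1, Mgst1, Ly6a) reached 297.2 CPM, and Dct alone stood at 94.9 CPM. The suprabasal list (Krt1, Krt10, Lor) stayed at 40.9 CPM or below in every sort. The part of such cells in the results on LOS, UOS and pl2 was not tested.

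Compared per kilobase of the canonical transcript, the members covered a wide range. The median over the 9 sorts was 48.97 CPM per kb for Sox9, 22.1 for Tbx1, 17.1 for Nfib, 16.2 for Runx1 and 10.6 for Lhx2. Nfatc1 followed with 7.08, Tcf7l2 with 4.89, Tcf7l1 with 3.61, Foxc1 with 0.998 and Gata6 with 0.483 CPM per kb. By this median Sox9 was the highest and Gata6 the lowest member.

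**Figure D1:**
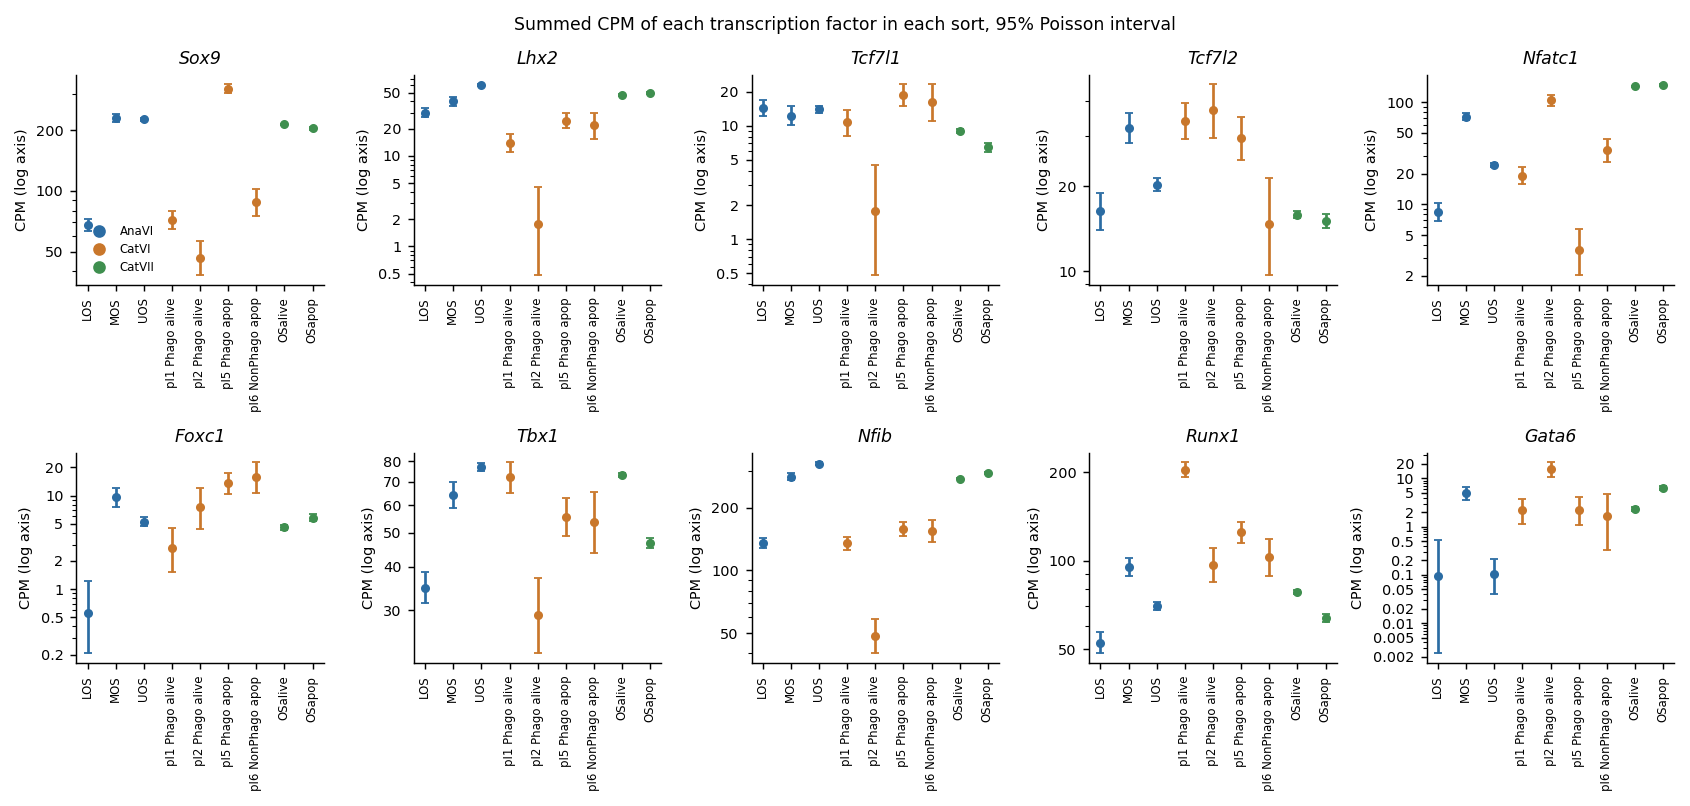
Summed level of each member in each of the 9 sorts, in CPM on a log axis that differs between panels. Points are the sum over the passing cells of a sort, bars are 95% Poisson intervals of the counts, and colours give the stage. Nfatc1 lies highest in the 2 CatVII sorts, Lhx2 and Nfib lie lower on the CatVI plates than in UOS, and Gata6 lies at 0.0933 and 0.102 CPM in LOS and UOS.

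Sox9, the SOX factor that specifies ORS and bulge progenitors (chr11:112673009-112678586 on GRCm39), stood at similar levels in the upper sorts of AnaVI and CatVII. Its level was 226.1 CPM in UOS (95% Poisson interval 222.6 to 229.7), 229.3 in MOS (219.2 to 239.7), 213.8 in OSalive (212.1 to 215.5) and 204.5 in OSapop (201.2 to 207.8). LOS was lower at 67.9 CPM (63.1 to 73.1). The CatVI plates were far apart, with 72.02 CPM on pl1, 46.8 on pl2, 320.6 on pl5 and 88.04 on pl6. The highest and the lowest summed level of Sox9 were therefore both found at CatVI. Its levels in MOS and UOS had overlapping intervals, as did those of neighbours in the order from pl6 through pl1 to LOS. Over cells, the median was 219.8 CPM in UOS, 180.3 in OSalive and 36 in LOS, where 25 of 39 cells had a count. On pl5 the median cell was at 198.7 CPM, below that of UOS. There 27.3% of the Sox9 counts came from 1 cell, and 260.1 CPM remained without the cell of highest CPM.

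Lhx2, a LIM homeodomain factor of HFSCs (chr2:38229293-38259759), was highest in UOS at 60.2 CPM (58.4 to 62.1). OSapop and OSalive followed at 49.3 CPM (47.7 to 50.9) and 47.2 CPM (46.4 to 48.01), with intervals that overlapped. MOS was at 40.1 CPM (36.01 to 44.6) and LOS at 30.1 CPM (26.9 to 33.6). All 4 CatVI plates lay lower. Levels were 24.5 CPM on pl5 (20.1 to 29.5), 21.7 on pl6 (15.5 to 29.6), 13.9 on pl1 and 1.77 on pl2. Neighbours in the order from LOS through pl5 and pl6 to pl1 had overlapping intervals. The pl2 level was 4 counts in 2 of 9 cells, and on pl6 72.5% of the Lhx2 counts came from 1 cell.

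Nfib, a nuclear factor I protein (chr4:82208410-82623987), was, like Lhx2, highest in CPM in UOS and lowest on pl2. The order of Nfib depended on the scaling. Relative to the median ratio of all genes, used below, its log2 ratio to UOS was 0.10 in MOS and 0.08 in OSalive. That of Lhx2 was -0.28 and -0.03. It stood at 325.3 CPM in UOS (321.05 to 329.6), 292.5 in OSapop (288.6 to 296.5), 281.2 in MOS (270.1 to 292.7) and 274.8 in OSalive (272.9 to 276.7). The CatVI plates reached 158.4 CPM on pl5, 154.9 on pl6, 135.1 on pl1 and 48.6 on pl2. LOS, at 135.2 CPM (128.3 to 142.4), lay among the CatVI plates. Nfib was detected in 458 of the 463 cells, the most of any member, and its median cell was at 108.2 CPM in LOS and 127.05 to 149.6 CPM on pl1, pl5 and pl6 against 340.53 CPM in UOS. Across the 9 sorts, the log2 levels of Nfib and Lhx2 had a Pearson r of 0.96, the highest of all pairs of members, and those of Nfib and Sox9 one of 0.80. These sorts share plates, stages and depth, and r is given as a description.

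Nfatc1, which restrains HFSC division downstream of calcineurin (chromosome 18), differed between stages in the median cell as well as in the sum. Its level was 24.3 CPM in UOS (23.1 to 25.5), 142.97 in OSalive (141.6 to 144.4) and 146.9 in OSapop (144.1 to 149.7). The median cell was at 0 CPM in LOS, MOS, UOS and on each CatVI plate, but at 87.4 CPM in OSalive and 92.4 CPM in OSapop. A count was found in 46.4% of UOS cells, 91.2% of OSalive cells and 86.96% of OSapop cells. The CatVII sorts thus differed from UOS both in the share of cells with Nfatc1 and in its level per cell. High sums in smaller sorts came from single cells. MOS summed to 71.6 CPM, of which 71.7% were counts of 1 cell, and 22.1 CPM remained without the cell of highest CPM. On pl2, 84.7% of the counts behind 104.2 CPM came from 1 of 9 cells, and on pl6 88.7% of those behind 33.7 CPM from 1 of 14. Nfatc1 was at 19.1 CPM on pl1, or 10.8 CPM without its highest cell, 8.49 CPM in LOS and 3.56 CPM on pl5.

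Foxc1, a forkhead factor of quiescent bulge cells (chr13:31990616-31996459), had a median cell at 0 CPM in every sort but pl5. It reached 15.8 CPM on pl6 (10.6 to 22.6), 13.6 on pl5 (10.4 to 17.4), 9.60 in MOS (7.63 to 11.9) and 7.51 on pl2 (4.37 to 12.02). OSapop was at 5.83 CPM, UOS at 5.27, OSalive at 4.58 and pl1 at 2.74. LOS held 6 counts in 2 of 39 cells, or 0.560 CPM (0.205 to 1.22). Neighbours in this order had overlapping intervals down to pl1, and LOS lay apart from pl1. In MOS, 73.2% of the Foxc1 counts came from 1 cell. Without the cell of highest CPM, Foxc1 was at 2.81 CPM in MOS, 8.43 on pl6, 3.21 on pl2 and 11.3 on pl5.

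Tbx1, a T-box factor of the bulge (chr16:18399729-18409421), was among the steadier members. It stood at 77.2 CPM in UOS (75.1 to 79.3), 73.1 in OSalive (72.1 to 74.1), 72.02 on pl1 (65.1 to 79.5) and 64.3 in MOS (58.99 to 69.9). OSapop was lower at 46.8 CPM (45.3 to 48.4), LOS at 34.8 (31.4 to 38.5) and pl2 at 29.1 (22.5 to 37.1). The plates pl5 and pl6 lay between at 55.6 and 53.8 CPM.

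Of the Wnt effectors, Tcf7l1 (chr6:72603354-72766589) was at 14.4 CPM in LOS, 12.3 in MOS and 13.9 in UOS. In LOS 41.6% of its counts came from 1 cell, and the median cell was at 0 CPM against 7.72 CPM in UOS. Each neighbour in the order overlapped the next from pl5 at 18.7 CPM down to OSalive at 8.93 CPM. Sorts further apart in the order did not all overlap, and UOS (13.05 to 14.8) lay apart from OSalive (8.59 to 9.28). OSapop was at 6.49 CPM (5.92 to 7.10) and pl2 at 1.77 CPM, from 4 counts. Without its highest cell Tcf7l1 was at 10.2 CPM on pl5. Tcf7l2 (chr19:55730188-55922091) spanned the smallest range of all members for which a ratio could be formed, 1.34 on the log2 scale. It was at 37.1 CPM on pl2, 34.1 on pl1, 32.2 in MOS, 29.6 on pl5, 20.2 in UOS and 14.7 to 16.3 in LOS, OSalive, OSapop and pl6. Summed over all cells, Tcf7l1 was thus lower in CPM in the CatVII sorts than in the AnaVI sorts. The sets of CatVII wells differed, with OSalive at 7.31 CPM in the first and 11.6 CPM (10.96 to 12.2) in the second. The second lay inside the MOS interval of 10.05 to 14.9. OSapop was at 5.42 and 7.38 CPM in the sets. The 4 highest levels of Tcf7l2, from pl2 to pl5 in that order, had overlapping neighbours.

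Runx1, a Runt domain factor (chr16:92398354-92623037), was above its UOS level on all 4 CatVI plates, as was Gata6. It stood at 203.7 CPM on pl1 (191.9 to 215.98), 124.8 on pl5 (114.7 to 135.6), 102.7 on pl6 (88.6 to 118.5) and 96.7 on pl2 (84.3 to 110.4). UOS was at 70.05 CPM (68.1 to 72.1), MOS at 95.2, OSalive at 78.2, OSapop at 63.8 and LOS at 52.5. The cell medians were 137.8 CPM on pl1, 77.3 on pl5 and 73.6 on pl6 against 57.4 in UOS, but 16.2 CPM on pl2. There 43.4% of the counts came from 1 of 9 cells, and without the cell of highest CPM Runx1 was at 60.6 CPM on pl2 against 65.3 CPM in UOS. The plate with the highest Runx1 level, pl1, also held 41.03 CPM of the endothelial list, against 0 to 1.09 CPM on the other CatVI plates, and the part of such cells was not tested.

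Gata6, the upper follicle factor (chromosome 18), was found in 39 of the 463 cells. LOS held 1 count and UOS 7 counts in 2 cells. It stood at 4.92 CPM in MOS (3.54 to 6.64), 2.32 in OSalive (2.14 to 2.50) and 6.21 in OSapop (5.66 to 6.81). The plates pl1, pl5 and pl6 were at 2.19, 2.22 and 1.63 CPM, each from 1 cell. The level of 15.5 CPM on pl2 (10.8 to 21.5) was 35 counts in 2 of 9 cells, and both cells also held counts of Krt79, a keratin of the upper follicle that stood at 232.7 CPM on that plate. In OSapop, 7 of 14 cells with Gata6 also had Krt79, which 8 of all 92 cells had. In OSalive 3 of 12 cells with Gata6 had Krt79, and 5 cells in all had it. After thinning to 50000 gene counts, 1 of 6 cells with Gata6 had Krt79 in OSapop and 1 of 6 in OSalive. With a minimum of 5 counts of each gene, unthinned, 3 of 8 had it in OSapop and 2 of 9 in OSalive. Krt79 was set beside Gata6 after the values had been seen.

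**Figure D2:**
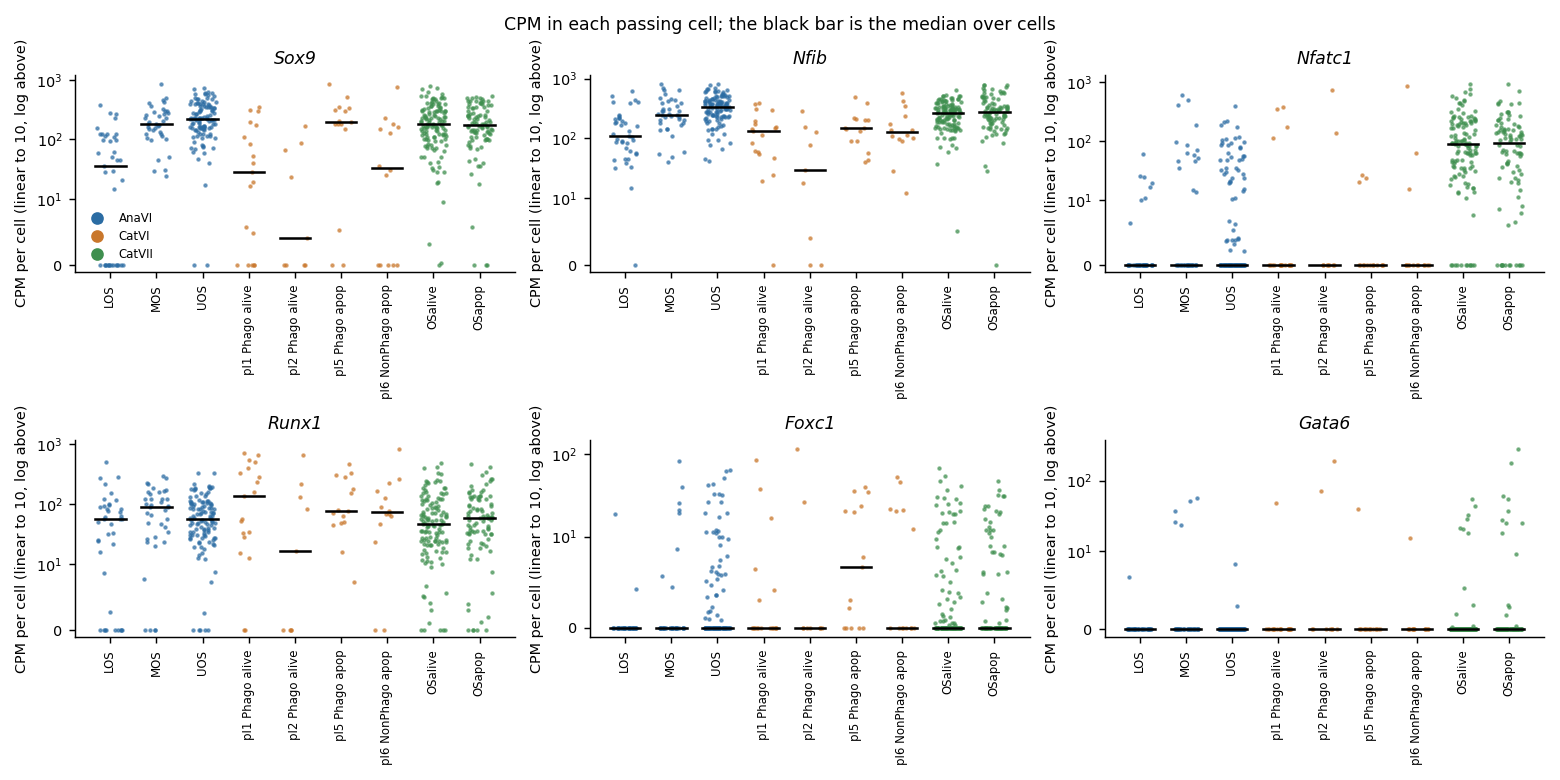
CPM of 6 members in each passing cell, by sort, on an axis that is linear to 10 and logarithmic above, with colours for the stage and a black bar for the median cell. The Nfatc1 medians are 87.4 and 92.4 CPM in OSalive and OSapop and 0 in the other sorts, and Gata6 is at 0 in most cells of every sort.

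For each comparison the log2 ratio of CPM was taken relative to the median ratio of all genes with 100 or more counts over both groups. A member was called past 2-fold where this centred ratio was at least 1 in size and its 95% counting interval lay on the same side of 0. Intervals cover counting error only, and neither cells nor genes stand for animals. The 4 comparisons with UOS share that group.

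LOS against UOS set lower against upper-middle ORS at AnaVI. Of the 9 members that passed the minimum, 0 were higher and 6 were lower past 2-fold, against 13.4% of all genes higher and 15% lower. The centred log2 ratio was -3.28 (-4.73 to -2.14) for Foxc1, -1.78 (-1.89 to -1.67) for Sox9, -1.56 (-1.88 to -1.25) for Nfatc1, -1.31 (-1.39 to -1.23) for Nfib, -1.19 (-1.35 to -1.04) for Tbx1 and -1.04 (-1.21 to -0.88) for Lhx2. Tcf7l1 at 0.01, Tcf7l2 at -0.35 and Runx1 at -0.46 were not called, and Gata6 had too few counts. In LOS 79.1% of the Nfatc1 counts and 45.1% of the Sox9 counts came from 1 cell each, and Foxc1 rested on 6 counts. The median of the 9 members was -1.19, and that of all genes is 0 by the centring. With cells thinned to 50000 counts Tbx1 was at -0.90 and not called, and Foxc1, at -0.58, and Tcf7l1, at -0.40, had too few counts. Without centring, which moved ratios by 0.04, Lhx2 was at -0.999 and no longer past the limit. All genes of the keratinocyte list were also lower past 2-fold in LOS. Krt14 was at -1.63, Krt5 at -1.27, Itga6 at -1.11 and Itgb4 at -1.05. Lower ratios of this size were thus not particular to the members. Markers of fibroblasts, melanocytes and dividing cells were high in LOS, as given above. The part of cell make-up in the lower members was not tested.

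MOS and UOS carry the same region and stage labels. Here 2 of 9 members were higher and 0 lower, against 11.3% and 16.4% of all genes. They were Nfatc1 at 1.87 (1.73 to 2.002) and Foxc1 at 1.17 (0.81 to 1.52). Without the cell of highest CPM in each sort, Nfatc1 was at 0.24 and Foxc1 at -0.55, so that both calls rested on single cells. Sox9 at 0.33, Nfib at 0.10, Tbx1 at 0.04 and Tcf7l1 at 0.13 lay near the median gene, and Tcf7l2 at 0.98 and Runx1 at 0.75 were not called. The median gene was at -0.31 before centring, and without centring 6.56% of genes were higher and 22.95% lower.

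CatVI against UOS compared the 57 passing cells of 4 plates with UOS at AnaVI. This pool mixed Phago alive, Phago apop and NonPhago apop cells and held no NonPhago alive cells. Of 9 members, 1 was higher and 2 were lower, against 16.7% and 20.8% of all genes. Runx1 was higher at 1.26 (1.19 to 1.34), but at 0.86 without centring and with the top gene out of the denominator, and at 0.39 with no minimum count, it was not called. Lhx2 at -1.70 (-1.90 to -1.51) and Nfib at -1.13 (-1.20 to -1.06) were lower. Taken plate by plate, Runx1 lay between 1.03 and 1.78, Lhx2 between -4.49 and -0.82 and Nfib between -2.15 and -0.56, each with 1 sign on all 4 plates. Tcf7l2, not called in the pool at 0.78, lay between 0.01 and 1.47. Sox9 changed sign between plates, with 0.98 on pl5 and -1.67 to -0.89 on the others. Its pooled ratio of -0.42 became -1.503 without pl5. The pl5 ratio is one of summed counts, and the median cell there was at 198.7 CPM against 219.8 CPM in UOS. Nfatc1 ran from -2.29 on pl5 to 2.70 on pl2, and its pooled ratio of 0.48 became -0.44 without pl2. Foxc1 was at 2.05 on pl6, 1.84 on pl5, 1.11 on pl2 and -0.70 on pl1, and passed 2-fold at 1.56 when pl1 was left out. Tbx1 stayed within -0.81 and 0.14. Without pl2, Nfib was at -0.94 and no longer past the limit. Without centring, 12.9% of genes were higher and 24.9% lower. Genes of the bulge list also differed in this comparison. Cd34 was at -4.57, Postn at -2.35 and Krt15 at -2.19, whereas Lgr5 was at 2.79 and Fgf18 had too few counts. The part of cell make-up in the ratios of the members was not tested.

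**Figure D3:**
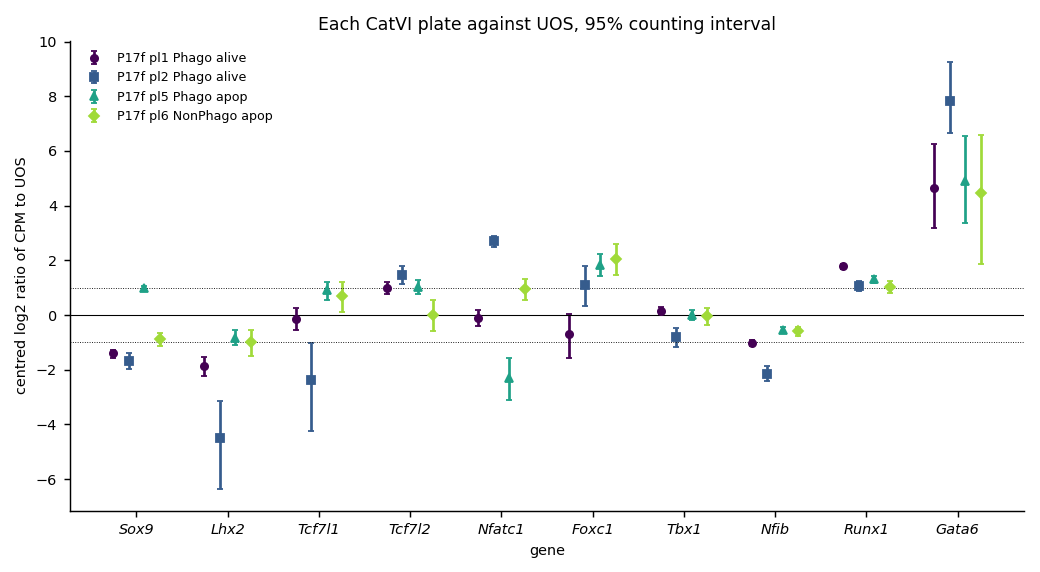
Centred log2 ratio of each member on each CatVI plate against UOS, with 95% counting intervals and dotted lines at 2-fold. Runx1 lies above 0 and Lhx2 and Nfib lie below 0 on all 4 plates, whereas Sox9, Nfatc1 and Foxc1 lie on both sides, and the Gata6 points rest on fewer than 100 counts each.

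OSalive against UOS compared CatVII with AnaVI. All 10 members passed the minimum, and 2 were higher and 0 lower, against 15.9% and 19.5% of all genes. Nfatc1 was at 2.88 (2.81 to 2.95) and Gata6 at 4.82 (3.77 to 6.14), the latter from 666 counts against 7. The other 8 members lay between -0.32 for Tcf7l1 and 0.48 for Runx1, with Sox9 at 0.24, Tbx1 at 0.25, Nfib at 0.08, Foxc1 at 0.12 and Lhx2 and Tcf7l2 both at -0.03. Each of these 8 was therefore within 2-fold of the median gene. Nfatc1 was at 2.64 to 2.91 with cells thinned to the same total, weighted equally or without its highest cell. In each set of CatVII wells alone, Nfatc1 was at 2.97 and 2.71 and Gata6 at 4.90 and 4.70 against UOS, all past 2-fold. Gata6 rested on 4 of 57 and 6 of 61 OSalive cells in the sets, both against the same 7 UOS counts. With cells thinned to 50000 counts, Gata6 was in 4.84% of OSalive cells (1.80 to 10.2) and 0.90% of UOS cells (0.02 to 4.92), and these intervals overlapped. Tcf7l1 was at -0.51 in the first set and at 0.06 in the second. Depth differed between these sorts, and without centring 11.5% of genes were higher and 26.6% lower.

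OSapop against OSalive compared cells whose names differ in the word apop. Here 1 of 10 members was higher and 0 lower, against 8.81% and 12.8% of all genes. Gata6 was higher at 1.30 (1.13 to 1.48), from 14 cells in OSapop and 12 in OSalive. It was at 0.84 and not called when the 5 deepest cells of each sort were left out. Within the first set of wells it was at 1.77 (1.54 to 1.99), past 2-fold, and within the second at 0.88 (0.58 to 1.17), not called. Tbx1, at -0.76 over all cells, was at -0.40 within the first set and at -1.20 (-1.28 to -1.12), lower past 2-fold, within the second. With thinned cells Tbx1 was at -1.03 and lower past 2-fold, while Gata6 had too few counts, so that 0 members were higher and 1 lower. Tcf7l1 was at -0.58 over all cells and at -0.63 and -0.65 within the sets, and Sox9, Lhx2, Nfatc1, Nfib and Tcf7l2 lay between -0.19 and -0.03.

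**Figure D4:**
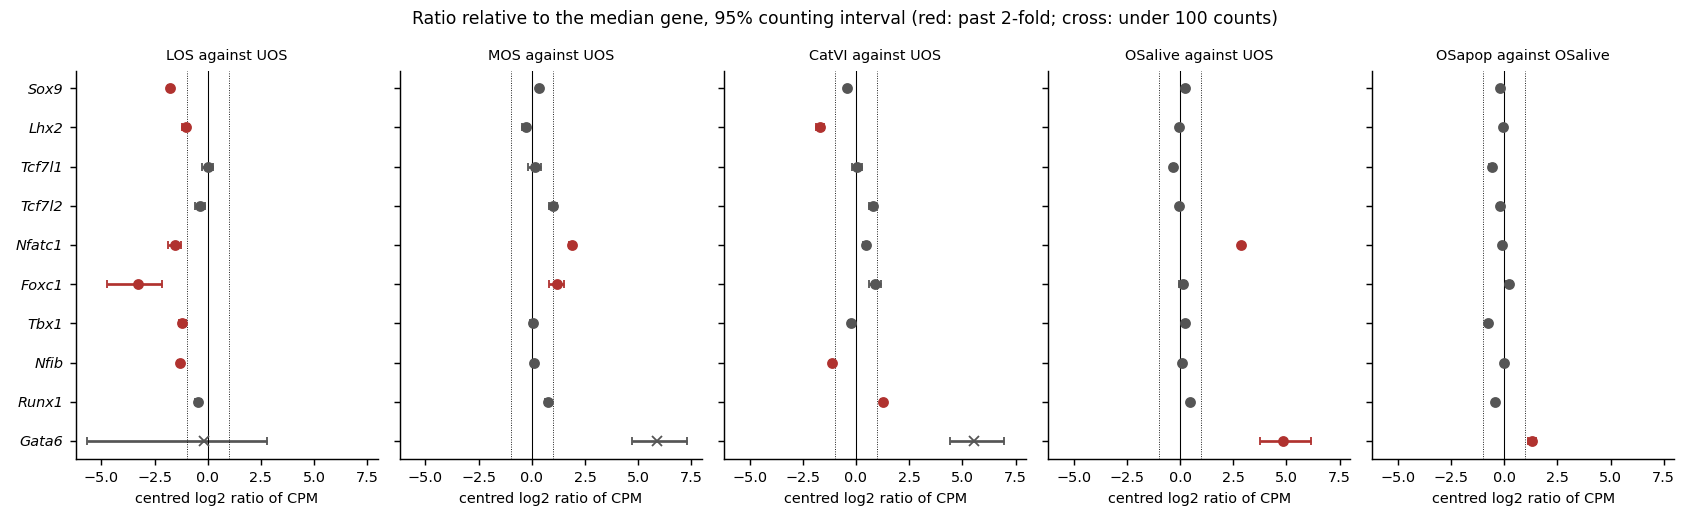
Centred log2 ratio of the 10 members in the 5 comparisons, with 95% counting intervals. Red points are past 2-fold, crosses are members under 100 counts, and the dotted lines mark 2-fold. LOS against UOS holds 6 red points, all below 0.

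Of 32 relatives and cofactors of the members, between 21 and 27 passed the minimum in each comparison. In LOS against UOS 6 of 25 were higher and 2 lower, against 13.4% and 15% of all genes. Tbx2 and Tbx3, T-box factors, led with 26.4 and 17.2 CPM in LOS, but 99.6% and 94.6% of these counts came from 1 cell each. Tbx2 was at 0 counts in UOS, so its centred ratio of 9.19 against 3 counts is a lower bound, and Tbx3 was at 6.57. Sox5 was at 3.80 and Runx2 at 1.46. In MOS against UOS 0 of 21 were higher and 2 lower, against 11.3% and 16.4% of all genes. They were Cbfb, the partner subunit of Runx1, at -1.28, and Nfatc2, which had 0 counts in MOS and lay at -1.78 or below when set to 3 counts.

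At CatVI 11 of 25 relatives were higher than in UOS and 2 lower, against 16.7% and 20.8% of all genes. The largest differences were Sox5 at 3.59, Nfatc2 at 2.74, Sox6 at 2.48 and Lef1, the Wnt effector related to the Tcf7l genes, at 1.98. Few cells carried some of these counts. For Sox5, 80.4% of the counts on pl1 came from 1 cell, for Sox6 91.7% of those on pl2 and all on pl6, and for Nfatc2 all on pl6. In OSalive against UOS 6 of 27 were higher and 2 lower, against 15.9% and 19.5% of all genes, led by Tbx3 at 2.27, Cbfb at -1.76, the corepressor Tle2 at 1.71 and Sox6 at 1.59. In OSapop against OSalive 2 of 27 were higher and 2 lower, against 8.81% and 12.8% of all genes, namely Nfatc2 at 1.77, Runx2 at 1.65, Sox6 at -2.61 and Lef1 at -1.21. Of the Sox6 counts in OSapop, 65.8% came from 1 cell, as did 49.1% of the Nfatc2 counts in OSalive. The median of the relatives was 0.16 for LOS, -0.16 for MOS, 0.75 for CatVI and 0.50 for OSalive, each against UOS, and -0.11 for OSapop against OSalive.

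To compare cells at the same total, each was thinned to 50000 gene counts, which left out 16 of 39 LOS cells, 6 of 38 MOS cells, 7 of 92 OSapop cells and at most 2 in any other sort. The depth left for named genes still differed, since rows with a symbol held 19.3% of the counts in OSalive, 25.1% in UOS and 28.7% on pl2. Nfatc1 was then detected in 82.3% of OSalive cells (exact Clopper-Pearson interval 74.4 to 88.5), 77.6% of OSapop cells (67.3 to 85.97), 31.5% of UOS cells (23.04 to 41.04) and 16.7 to 37.5% of cells in the other sorts. The unthinned shares were given above. Lhx2 was detected in 77.5% of UOS cells (68.6 to 84.9), 75.8% of OSalive cells and 56.5% of LOS cells, and in 12.5% of cells on pl2, 16.7% on pl1, 25% on pl6 and 60% on pl5. The thinning is 1 random draw, and the plate values moved with the depth. At 20000 counts Lhx2 was in 31.6% of cells on pl1, 33.3% on pl5, 14.3% on pl6 and 0 of 9 on pl2, against 66.1% in UOS, and unthinned in 63.2% on pl1 and 93.3% on pl5, against 96.4% in UOS. Nfib was present in 94.4 to 100% of cells outside pl2, where the share was 62.5%. Sox9 was detected in 94.1 to 100% of cells in MOS, UOS, OSalive and OSapop and in 50 to 80% of cells elsewhere. Gata6 was in 0 of 15 cells on pl5, which allows a share of up to 20% with a count at this depth (3 counts of 15 cells), and in 0.901 to 25% elsewhere. Unthinned, 1 cell on pl5 held 10 counts of Gata6.

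**Figure D5:**
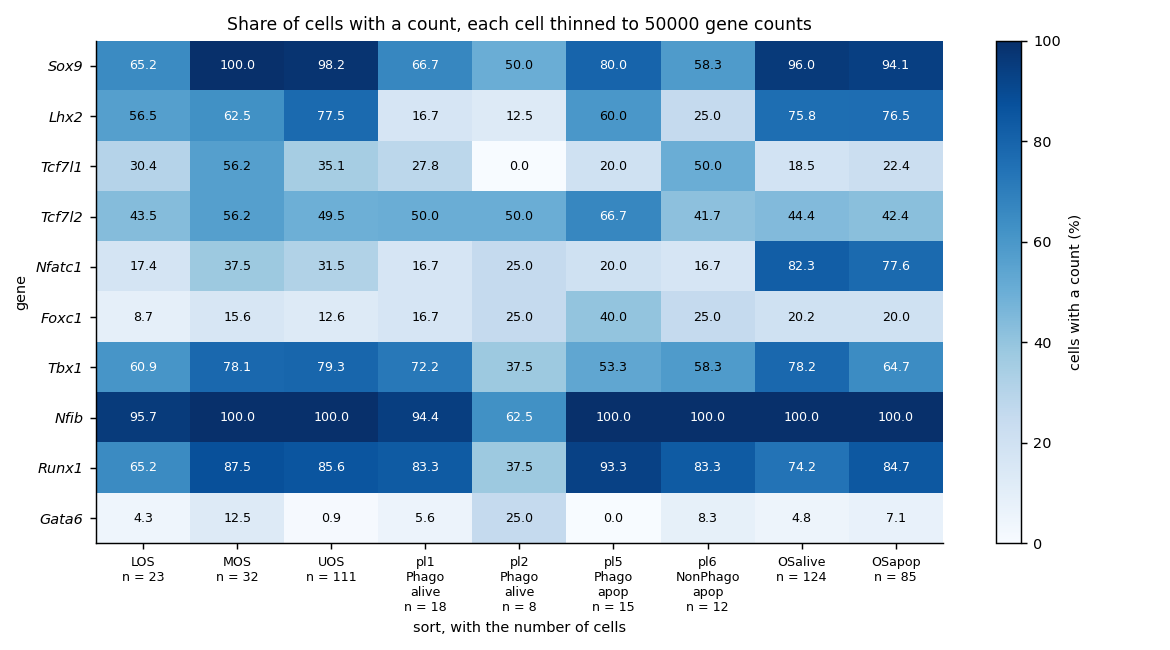
Share of cells with at least 1 count of each member after each cell was thinned to 50000 gene counts, in percent, by sort, with the number of cells below each sort. The Nfatc1 row is darkest in OSalive and OSapop, at 82.3% and 77.6%, and the Gata6 row does not exceed 25%.

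A cell carried several of the 10 members at once. The median was 6 members at this depth in MOS, UOS, OSalive and OSapop, 5 in LOS, pl1 and pl5 and 4.5 on pl2 and pl6. At least 5 members were found in 96.9% of MOS cells, 93.5% of OSalive cells, 82.4% of OSapop cells, 81.98% of UOS cells, 80% on pl5 and 50 to 56.5% of cells in LOS, pl1, pl2 and pl6. Lhx2 and Nfatc1 were found together in 31 UOS cells, 79 OSalive cells and 52 OSapop cells, where the product of their separate shares gives 27.1, 77.3 and 50.5 cells. Nfatc1 and Gata6 were together in 4 of 32 MOS cells, where the product gives 1.5, and in all 6 OSalive cells with Gata6, where it gives 4.94.

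For each member other than Tcf7l1 the genes of most similar level over the 9 sorts were looked up among 8845 genes, by Pearson r of log2(CPM + 1). They were Pik3r1, Gnb1l and Gas1 for Lhx2 (r from 0.98 to 0.99), Rab3d, Mrpl44 and Ppl for Nfib (0.96 to 0.98), Zfp696, Cds1 and Zbtb7a for Sox9 (0.93 to 0.94) and Bid, Bcar1 and Map6 for Nfatc1 (0.92 to 0.93). For Runx1 they were Gm37137, Vangl2 and Bcl2l11 (0.92 to 0.94), for Tbx1 Pfkm, Elovl1 and Irx5 (0.88 to 0.91), and for Foxc1 Tab3, Cyp2j9 and Setdb2 (0.90 to 0.94). Tcf7l2 was most like Arhgap42, Bbx and Mapk6 (0.91 to 0.98), and Gata6 like Dlgap4, Stxbp5 and Sik2 (0.90 to 0.93). The 9 points share plates, depth and cell make-up, and r was searched over many genes, so it is a description.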

How the data were processed

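Smart-seq2 libraries of single sorted cells were analysed. Per the labels, the authors' processing notes name STAR 2.6, Salmon 1.4.0, R 3.6.1 and Scanpy and the build mm39. The deposited values are estimated counts per gene and cell, and 11.0% of the non-zero values were not whole, so they were rounded here. The deposited cell annotation table was not used. Of 1036 cell columns, 1 was left out because its labels conflict, and 1 sample had no column. Spike-in rows (92) stayed out of library sizes. GENCODE vM39 symbols matched 93.3% of identifiers. No doublet caller was run, since the study removed wells with several cells.

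Counts of cells with at least 2000 detected genes were summed per sort and scaled to CPM, with exact Poisson intervals. Ratios carry exact binomial intervals and were centred on the median gene. Genes needed 100 counts over both groups, and a group at 0 was set to 3 counts. There are no molecular identifiers, so all intervals at 95% cover counting error only. Shares carry exact Clopper-Pearson intervals. Each sort is 1 pooled sample, so no p-value was computed. Counting is not stated to use strand, and genes on the opposite strand of 7 members held 0 to 107 counts, so reads of such partners cannot be told apart.

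Relatives were named by the largest centred ratios, up to 4 per comparison, among those past 2-fold. For each member the 3 genes with the highest Pearson r over the sorts were named, and those of Tcf7l1 are not reported here. The members and gene lists were chosen with earlier results of these data known. The cell of highest CPM or of most counts left out, the Krt79 comparison uncentred ratios with other denominators and the split of CatVII cells by title set were added after seeing the data. The ratio code was tested on simulated data. Python 3.11.15, numpy 2.4.6, pandas 2.3.3, scipy 1.17.1 and matplotlib 3.10.9 were used.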

Additional observations from a re-analysis of the deposited data

How the results depend on the processing

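The number of members past 2-fold in MOS against UOS, 2 as reported, was 1 with the mean over cells of CPM, with thinned cells, without centring and without centring with the top gene out of the denominator. It was 0 without the 5 deepest cells of each sort, without the cell of highest CPM and without the cell with the most counts. In this comparison the Foxc1 ratio changed sign, to -0.053 with the mean over cells, -0.20 without the 5 deepest cells, -0.55 without the cell of highest CPM and -0.40 without the cell with the most counts. In CatVI against UOS the number was 5 with no minimum count, and 2 to 4 with each plate left out in turn. In OSalive against UOS it was 1 with thinned cells, where Gata6 had too few counts. In OSapop against OSalive it was 2 with no minimum count and 0 without the 5 deepest cells. With no minimum count, genes under 100 counts also entered the centring median, so all ratios of a comparison moved by the same amount. In CatVI against UOS, Sox9 moved from -0.42 to -1.29, Tbx1 from -0.24 to -1.12 and Runx1 from 1.26 to 0.39. The cause of the other shifts was not tested. The other 85 recomputed numbers of members stayed within 1.5 times the reported ones. Single values were less steady. Of the recomputed log2 ratios, 616 stayed within the counting interval of the reported value, 340 lay outside it, and 4 called ratios changed sign. Of the recomputed shares of cells, 87 lay outside the interval of the reported share, of which 31 at 20000 counts, 32 with no thinning and 24 with 5 counts or more.

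Other denominators and median-of-ratios scaling cancel under centring. In CatVI against UOS, Nfatc1 was at -1.47 with a stricter minimum of detected genes per cell, Sox9 at -1.09 with thinned cells and Nfib at -0.97 without the 5 deepest cells. No paired analysis was possible because the numbers in the labels name single wells and each sort is a pooled sample. The 2 sets of CatVII wells, read from the titles after seeing the data, were compared separately. Between them the call of Gata6 in OSapop against OSalive was lost and that of Tbx1 gained in the second set, and the calls in OSalive against UOS held in both. For Gata6 the latter rested on 4 and 6 OSalive cells.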
